A study of Mus musculus with 33 samples.

Results

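The genes examined were the nuclear receptors through which retinoic acid acts and the proteins that take retinoids into the cell or hold them there. They were the 3 retinoic acid receptors Rara, Rarb and Rarg, the 3 retinoid X receptors Rxra, Rxrb and Rxrg, the cellular retinoic acid binding proteins Crabp1 and Crabp2, and Stra6, the membrane receptor for plasma retinol binding protein. They were chosen by name for their place in the pathway and are 9 of the 47729 genes in the count tables, of which 32488 had a count in at least 1 library. All 9 passed the filter on low counts, which kept 18150 genes.

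Retinoic acid is a small lipid signal made from retinol. It enters the nucleus and binds a retinoic acid receptor, which sits on DNA as a pair with a retinoid X receptor and switches from holding a gene off to turning it on. Retinoid X receptors also pair with thyroid hormone and other nuclear receptors. In the eye retinoic acid patterns the developing retina and favours rods in culture, and Rxrg is a known gene of young cones.

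RNA was sequenced from 33 libraries of retinal progenitor cells (RPCs) of C57BL/6J mice, all taken from the retina at embryonic day 14, in 11 groups of 3 libraries. At day 0 the cells were untreated, cone primed with COCO protein, a secreted antagonist of BMP, TGF-beta and Wnt signals, or rod primed with taurine and retinoic acid together. Cone cultures (COCO protein) and rod cultures (taurine and retinoic acid) were sampled at days 5, 12, 21 and 35. The labels give no dose, medium or length of exposure, so the parts of taurine and retinoic acid cannot be told apart, and no untreated group was analysed after day 0. They name no batch and do not say whether replicates were separate cultures, so p-values measure only the spread between these libraries, which may be technical.

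Each library held 7511837 to 19166442 counts in genes, with a median of 12985662. Levels are given as CPM, the count normalised to library size in edgeR, and 3 counts in a library correspond to 0.174 to 0.407 CPM. The 8 progenitor markers (Pax6, Rax and others) all had counts in every group and summed to 732 to 1453 CPM per library. Their mean sum was 1202 CPM in cone primed cells and 811 CPM in cone cultures at day 35. In rod primed cells it was 1326 CPM and in rod cultures at day 35 1153 CPM. Between these groups mean Rax went from 116 to 22.2 CPM (cone) and from 126 to 47.3 CPM (rod). Mean Pax6 went from 547 to 391 CPM (cone) and from 381 to 578 CPM (rod). The names cone and rod stand for the induction label: the 8 cone markers summed to 73 to 180 CPM in cone primed cells and to 0.768 to 2.99 CPM in cone cultures at day 35, where Opn1sw was at 0. The 7 rod markers summed to 724 to 1639 CPM in cone cultures and 254 to 733 CPM in rod cultures at day 5, with overlapping ranges and means of 1105 and 553 CPM, and at day 35 to 2.65 to 22.2 CPM in cone and 4.16 to 4.77 CPM in rod cultures, where Nr2e3 was at 0. The 8 Muller glia markers summed to 434 to 537 CPM in untreated libraries, 3851 to 4754 CPM in cone and 4413 to 7267 CPM in rod cultures at day 35; sums were not tested. In such bulk samples fewer cells of a type and less RNA per cell cannot be told apart.

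Replicate 2 of the rod cultures at day 12 stood apart from its group. On the first principal component of log2 CPM, which held 68.5% of the variance, it lay at -7.55 and the other 2 libraries of the group at 31.1 and 51.3. Its rod markers summed to 1599 CPM, against 19.9 and 64.3 CPM in the others. For rod cultures at day 12, values without it stand beside those of the members named below where they were computed. The submitters also deposited TPM values, which do not follow the counts; on those, no member passed the test in any comparison but 1, where 1 passed.

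Rarb, a receptor gene that retinoic acid itself switches on in many cells, changed most with rod priming. Its counts were 6, 13 and 3 in the untreated libraries and 2, 8 and 9 in the cone primed libraries. In the rod primed libraries they were 691, 1039 and 1042, which is 93.7, 105 and 93.6 CPM. The mean was 0.613 ± 0.358 CPM without treatment and 97.3 ± 6.37 CPM after rod priming (SD, n = 3 each), with no overlap between the groups. The log2 fold change was 7.34 ± 0.31 (SE), a 162-fold rise (adjusted p = 6.55e-15 in edgeR's quasi-likelihood test with Benjamini-Hochberg adjustment, as are all adjusted p-values here).

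The start of Rarb is shown because it holds a known retinoic acid response element, a textbook example of one, and because Rarb was the member with the largest rise. The 150 bases upstream of the RefSeq start, on the minus strand of GRCm38.p6 at chr14:16575477-16575626, are printed with the repeated hexamers of a direct repeat in capitals.

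Rarb: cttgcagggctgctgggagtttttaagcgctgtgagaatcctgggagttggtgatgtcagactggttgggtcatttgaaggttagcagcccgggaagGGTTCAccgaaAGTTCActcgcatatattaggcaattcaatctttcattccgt

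The repeat, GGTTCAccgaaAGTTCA, lies 53 to 37 bases upstream of the start. The search took the receptor hexamer AGGTCA and its variants, which were AGTTCA or GGTTCA as in this repeat and also GGGTCA, any 2 of them in the same orientation with 1, 2 or 5 bases between them, on both strands, in windows of 300 bases from 250 before to 50 after each RefSeq start. A repeat with 5 bases between was found in 32 of 32851 windows, or 0.0974%, and among the 18 windows of the members only in that of Rarb. Repeats with 1 and 2 bases between were found in 0.222% and 0.268% of windows and in none of the members. Crabp2 had no window in the table. Both hexamers of this known element and its spacing were part of the search, so the match in Rarb was fixed in advance and its rarity adds no weight. A match describes the letters only. The window lies within the Rarb span of GENCODE M21, chr14:16430839-16819156, whose longer transcripts start further upstream, while the deposited tables place the gene at chr14:16430842-16575472.

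Exons of Rarb overlap those of Top2b, a DNA topoisomerase gene on the opposite strand, and the strand setting of the counts is not given in the sources used here. Top2b was at 499 ± 16.9 CPM in untreated and 512 ± 12.9 CPM in rod primed cells (SD, n = 3 each), with a log2 fold change of 0.04 ± 0.09 (SE). Top2b did not pass the test in any cone to rod comparison. Against primed cells it fell at days 12, 21 and 35, by -0.33, -0.52 and -0.72 in cone cultures. In rod cultures the falls were -0.26, -0.43 and -0.65 (log2, largest adjusted p in both cultures 0.0187). Reads from the overlap cannot be assigned between Rarb and Top2b.

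**Figure D1:**
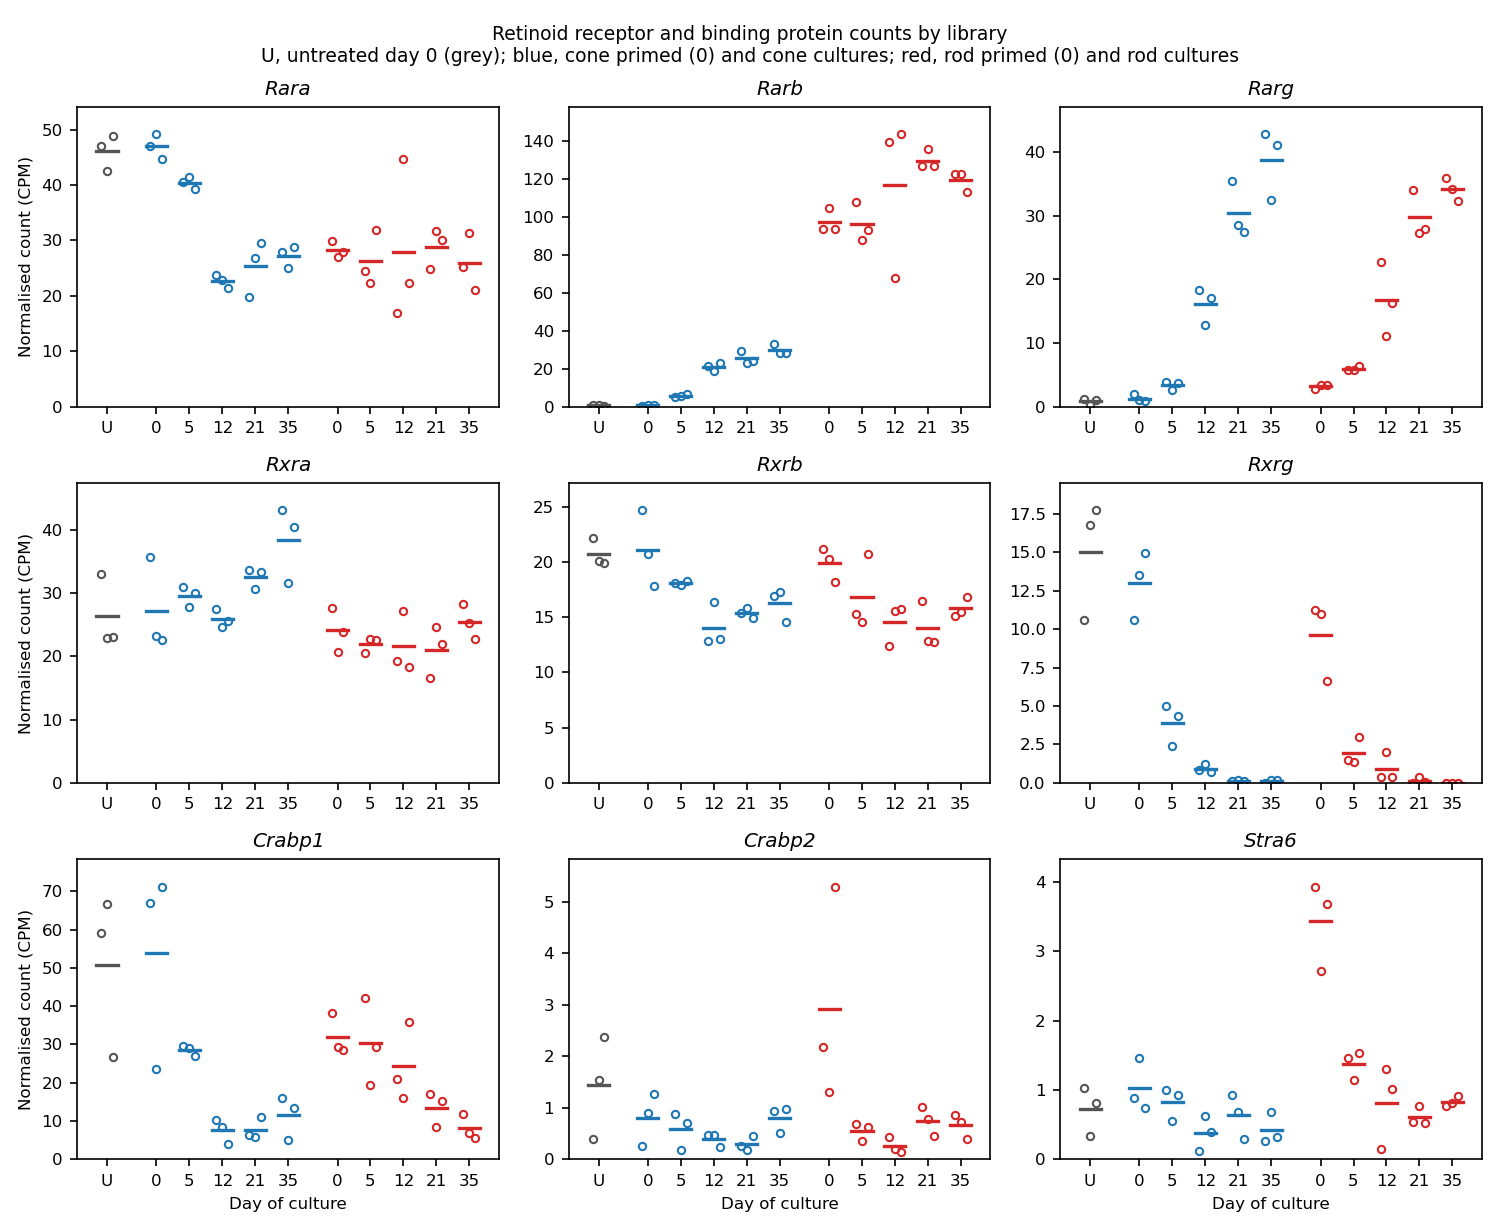
Normalised count (CPM, vertical axis, starting at 0 and scaled per gene) of each member in each of the 33 libraries by group and day; circles are libraries and bars are means of 3. Rarb lies near 0 in untreated and cone primed cells, at 93.6 to 105 CPM in rod primed cells, and in every rod culture above every cone culture.

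Against untreated cells, 4 of the 9 members changed in rod primed cells, 3 higher and 1 lower, where 10.3% of the 18150 genes tested were called, 6.71% higher and 3.56% lower. The median log2 fold change was -0.06 over the members and 0 over all genes. The members that rose were Rarb, Rarg and Stra6, and the member that fell was Rara. In cone primed cells none of the 9 members changed, with 0 also at an unadjusted p under 0.05 and 0 in DESeq2, and 0.00% of all genes were called. Between cone primed and rod primed cells, which shares the rod primed libraries with the first comparison, 4 members differed, where 7.27% of all genes were called: Rara was higher and Rarb, Rarg and Stra6 were lower in cone primed cells. Marker sums, which were not tested, were as follows in untreated against rod primed libraries: Muller glia 434 to 537 against 1108 to 1393 CPM, retinal ganglion cell (7 genes) 299 to 520 against 93.4 to 279 CPM, amacrine and horizontal cell (9 genes) 631 to 706 against 419 to 467 CPM, and rod photoreceptor 28.7 to 123 against 99.8 to 494 CPM. Their part in the changes of the members was not tested.

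Rarb remained high in rod cultures and climbed from near 0 in cone cultures. In rod cultures it measured 108, 87.8 and 92.8 CPM at day 5, 139, 67.7 and 143 CPM at day 12, 126, 136 and 127 CPM at day 21, and 123, 122 and 113 CPM at day 35. The low value at day 12 is replicate 2. At days 21 and 35 every rod library lay above every rod primed library (93.6 to 105 CPM). In the fit of all libraries no day of the rod cultures passed the test against rod primed cells. The smallest adjusted p was 0.0873 at day 21 (log2 fold change 0.41 ± 0.20). It fell to 0.00425 when only the compared libraries were fitted and to 0.00413 with voom.

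In cone cultures Rarb measured 4.94, 5.84 and 6.63 CPM at day 5, 21.2, 18.7 and 22.9 CPM at day 12, 29.5, 23.0 and 24.1 CPM at day 21, and 32.9, 28.2 and 28.2 CPM at day 35. Against cone primed cells it rose at each day, with log2 fold changes of 3.18 ± 0.35, 5.02 ± 0.32, 5.31 ± 0.32 and 5.53 ± 0.32 (SE; largest adjusted p = 4.40e-07). The labels of these cultures name no retinoic acid. From cone primed cells to cone cultures at day 35 the mesenchyme markers (10 genes) went from 5.34 to 13.7 CPM up to 735 to 4100 CPM, the astrocyte markers (5 genes) from 0.503 to 1.37 CPM up to 222 to 329 CPM and the microglia markers (8 genes) from 0.838 to 3.80 CPM up to 53.5 to 263 CPM. Aqp4 is on both the astrocyte and the Muller glia list, so the astrocyte sum does not mark astrocytes alone. What part cells with these markers had in the rise of Rarb was not tested.

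Cone cultures thus held less Rarb than rod cultures at every day, and no cone library reached the lowest rod library of its day. The log2 difference of cone from rod was -7.24 ± 0.32 between the primed cells and then -4.04 ± 0.23, -2.48 ± 0.21, -2.35 ± 0.21 and -2.01 ± 0.21 at days 5, 12, 21 and 35 (SE; largest adjusted p = 3.64e-07). Without replicate 2 of the rod cultures it was -2.76 at day 12. Averaged over days 5 to 35 it was -2.72 ± 0.11, or 6.58-fold (adjusted p = 1.30e-15), and -2.79 without that library. The difference itself changed with day (adjusted p = 1.04e-08, F test on the 4 later days against day 0).

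**Figure D2:**
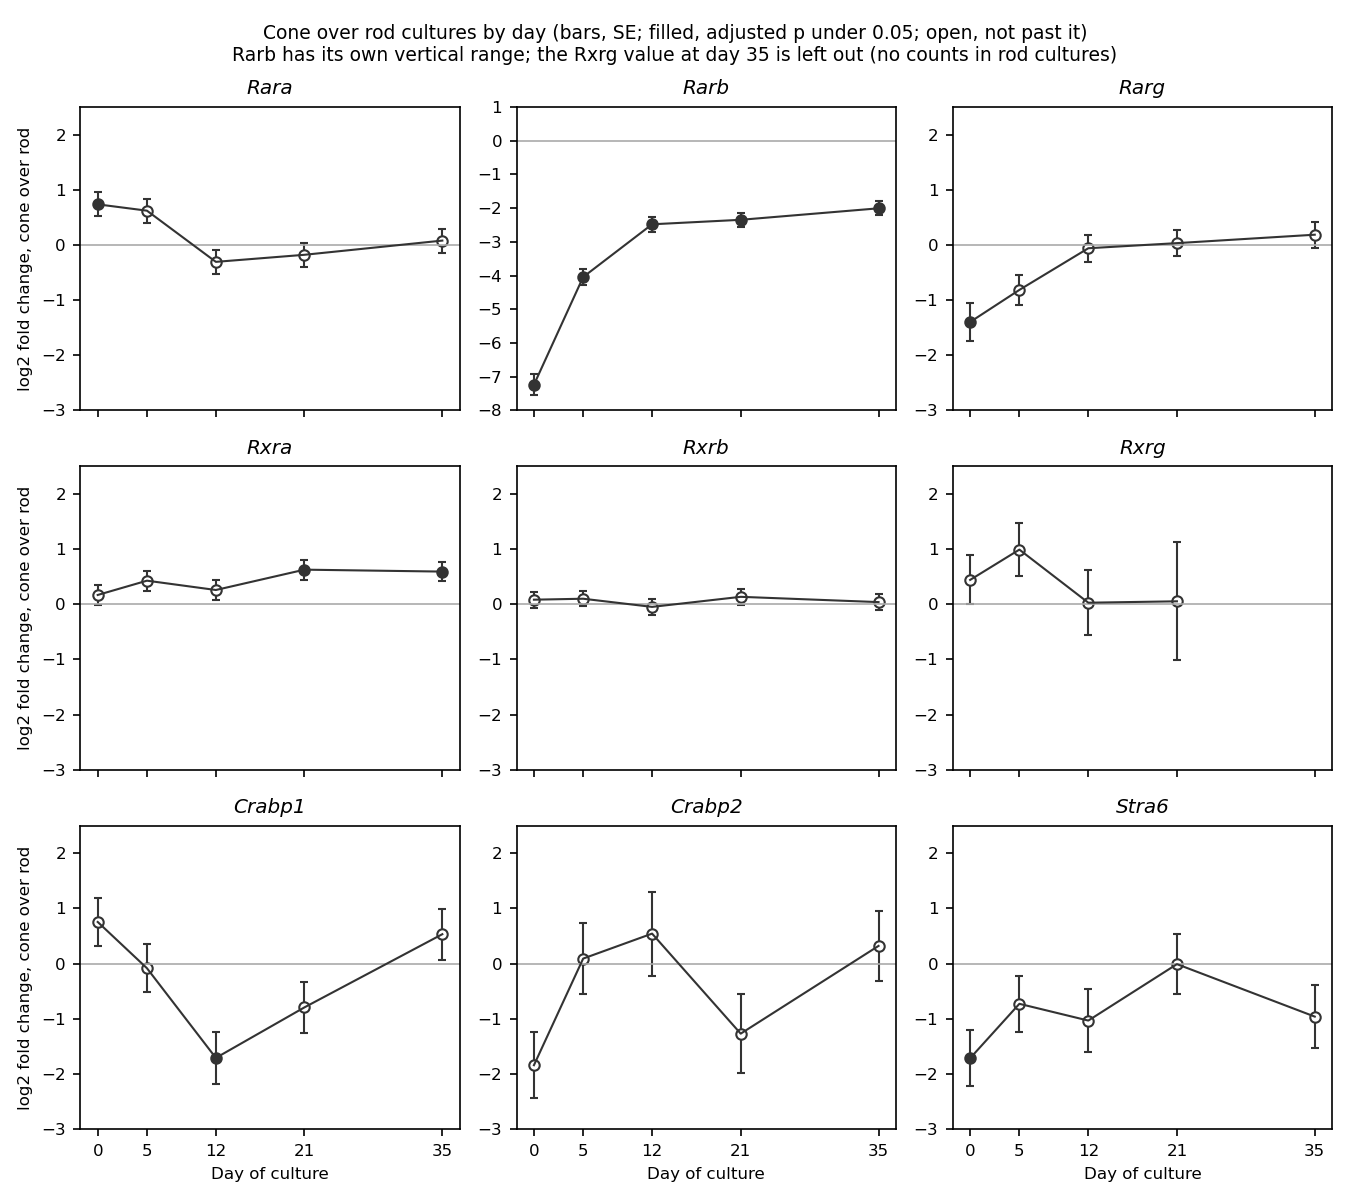
Log2 fold change of cone over rod (vertical axis) against day of culture for each member, with SE bars; filled points passed an adjusted p of 0.05. The Rarb difference shrinks from -7.24 at day 0 to -2.01 at day 35, and the Rxra points lie above 0 at all 5 days.

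Rarg, the receptor best known from skin and cartilage, was low in progenitors and climbed in both cultures. Its counts were 10, 4 and 15 in the untreated libraries, 16, 12 and 8 after cone priming and 21, 34 and 38 after rod priming. It rose in rod primed cells, from 0.855 ± 0.526 to 3.23 ± 0.329 CPM (SD, n = 3 each), a log2 fold change of 2.02 ± 0.36 (SE; adjusted p = 4.99e-04). It was lower in cone primed than in rod primed cells by -1.40 ± 0.35 (adjusted p = 0.0140), a call lost without cone primed replicate 2 or 3 or rod primed replicate 3, at adjusted p-values of 0.0691, 0.0896 and 0.0603.

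By day 35 Rarg had reached 42.8, 32.4 and 41.2 CPM in cone cultures and 35.9, 34.2 and 32.3 CPM in rod cultures, and these ranges overlap. It rose against cone primed cells at each day, by 1.45 ± 0.34 at day 5 and 4.97 ± 0.32 at day 35 (log2, SE; largest adjusted p = 0.00266). Against rod primed cells it rose by 0.87 ± 0.29 at day 5 (adjusted p = 0.0363, lost without any 1 of the 6 libraries, at 0.0589 to 0.112) and by 3.39 ± 0.28 at day 35 (adjusted p = 1.53e-10). At day 5 cone cultures measured 3.81, 2.61 and 3.72 CPM and rod cultures 5.73, 5.72 and 6.39 CPM, a difference of -0.82 ± 0.27 that did not pass (adjusted p = 0.0583), though it did in DESeq2 (0.0259), voom (0.0212) and with only the compared libraries (0.0325). From day 12 on the groups overlapped at each day. The summed Muller glia markers were higher on the later days too, and the 10 mesenchyme markers summed to 4.94 to 26.5 CPM in untreated libraries, 735 to 4100 CPM in cone and 339 to 815 CPM in rod cultures at day 35; their part in the rise of Rarg was not tested.

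Rara, the receptor present in most tissues, moved the other way and by less. It measured 47.1, 42.5 and 48.8 CPM in untreated cells, 46.9, 49.1 and 44.7 CPM after cone priming and 29.8, 27.0 and 27.8 CPM after rod priming, with the rod primed libraries below all others of day 0. The fall against untreated cells was -0.71 ± 0.22 (log2, SE; adjusted p = 0.0366), and cone primed cells were higher than rod primed cells by 0.74 ± 0.22 (adjusted p = 0.0388). Each of these calls was lost when any 1 of its 6 libraries was left out, at adjusted p-values of up to 0.144 and 0.134.

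In cone cultures Rara held at 40.6, 41.5 and 39.2 CPM at day 5 and then fell to 23.7, 22.8 and 21.4 CPM at day 12. The fall against cone primed cells was -1.05 ± 0.22 at day 12, -0.88 ± 0.22 at day 21 and -0.79 ± 0.22 at day 35 (log2, SE; largest adjusted p = 0.00303). In rod cultures group means lay between 25.8 and 28.8 CPM. No day passed the test against rod primed cells in the fit of all libraries. At day 5, where the 3 cone libraries lay above the 3 rod libraries (24.5, 22.4 and 31.9 CPM), the difference of 0.62 ± 0.22 did not pass (adjusted p = 0.0718), but did in DESeq2 (0.0394), voom (0.00329), with only the compared libraries (0.00889) and without rod day 5 replicate 3 (0.0487). In rod cultures at day 12 replicate 2 measured 44.8 CPM, against 16.9 and 22.3 CPM in the others.

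Divided by exon length, the 3 receptor genes can be set beside each other, though only roughly for Rarb. Its length is from GENCODE M21, whose span for Rarb is longer than that of the deposited tables, so it may include exons that were not counted. Exons of Rarb also overlap those of Top2b, as described above. In untreated cells Rara made up 97.1 ± 0.937% of the summed length-scaled counts (CPM per kb of exon) of the retinoic acid receptors, and in cone primed cells 96.3 ± 0.815% (SD, n = 3 each). In rod primed cells Rarb made up 71.9 ± 1.90% and Rara 25.2 ± 2.02%. The summed level of the 3 genes was 10.9 ± 0.809 CPM per kb in untreated cells, 11.2 ± 0.501 after cone priming and 25.7 ± 1.02 after rod priming, and the rod primed libraries do not overlap the others.

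By day 35 Rarg was the leading receptor gene of cone cultures, at 43.3 ± 2.21% of the family, with Rara at 29.8 ± 1.45% and Rarb at 27.0 ± 1.98%. In rod cultures Rarb still led with 62.0 ± 1.45%, followed by Rarg at 21.9 ± 0.913% and Rara at 16.1 ± 2.29% (SD, n = 3 each). The ranges of the neighbours Rara and Rarb in cone cultures overlap, from 28.1 to 30.7% and from 24.8 to 28.6%. The summed level was 21.0 ± 2.05 CPM per kb in cone and 36.6 ± 2.41 in rod cultures. These shares are descriptions, with no test.

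**Figure D3:**
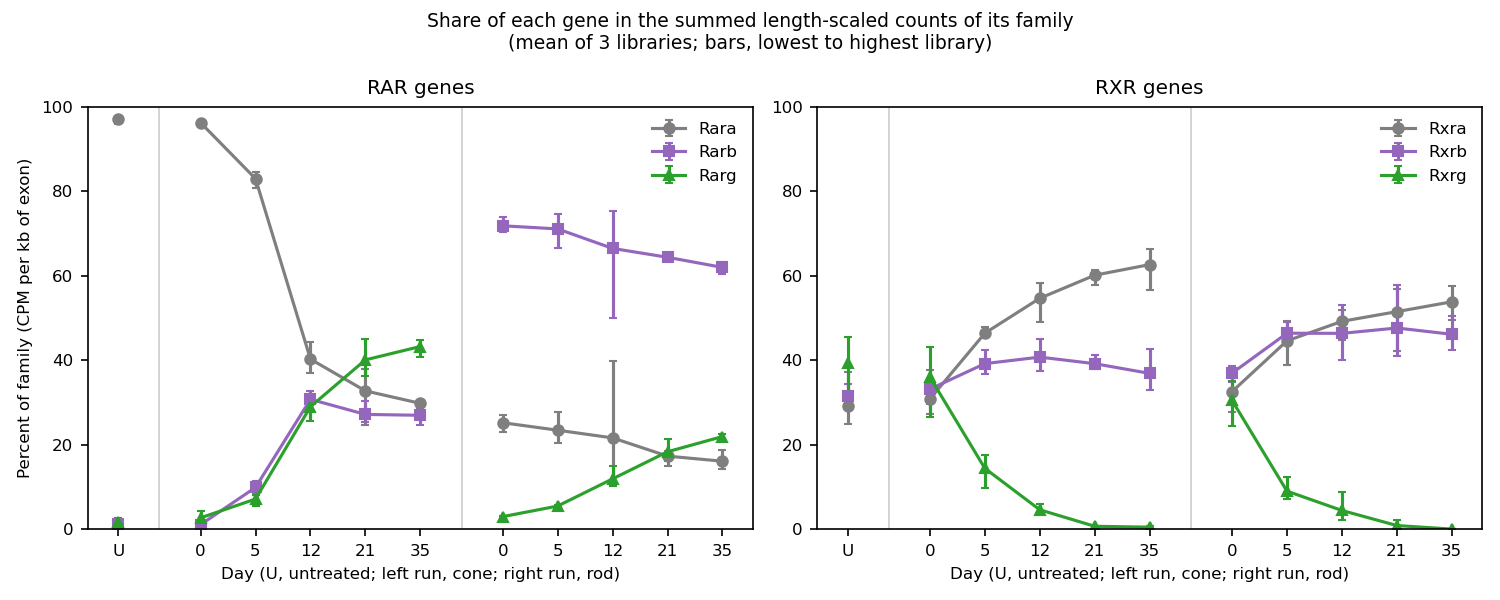
Percent of the summed CPM per kb of exon (vertical axis) held by each retinoic acid receptor gene (left) and each retinoid X receptor gene (right) in untreated cells and by day in cone and rod cultures; points are means of 3 libraries and bars run from the lowest to the highest. Rara holds 97.1% of the first family in untreated cells and Rarb 71.9% in rod primed cells, and Rxrg falls from 39.4% in untreated cells to 0 in rod cultures at day 35.

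Of the retinoid X receptors, Rxrg was lost in both cultures and the other two moved little. Counts of Rxrg were 83, 252 and 261 in the untreated libraries, 84, 167 and 143 after cone priming and 83, 109 and 74 after rod priming. In cone cultures they were 75, 39 and 75 at day 5, 7, 16 and 9 at day 12, 1, 2 and 2 at day 21, and 0, 2 and 2 at day 35. In rod cultures they were 13, 19 and 43 at day 5, 5, 29 and 5 at day 12, 0, 5 and 1 at day 21, and 0 in all 3 libraries at day 35.

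The fall of Rxrg passed the test at every day in both cultures. Against cone primed cells it was -1.73 ± 0.46 at day 5 (adjusted p = 0.00773; 0.0600 without cone day 5 replicate 2), -3.80 ± 0.53 at day 12, -6.33 ± 0.69 by day 21 and -6.74 ± 0.70 by day 35 (log2, SE; largest adjusted p at the last 3 days 2.12e-06). Against rod primed cells it was -2.28 ± 0.49 at day 5, -3.39 ± 0.52 at day 12 and -5.94 ± 0.67 at day 21. Without replicate 2 of the rod cultures of that day these last values were -4.74 at day 12 and -7.73 at day 21. At day 35 Rxrg was at least 124-fold lower in rod cultures than in rod primed cells, counted against a floor of 3 counts over the 3 libraries, or 0.0757 CPM. Cone primed and rod primed cells did not differ by the test, and at day 5 cone cultures were at 3.91 ± 1.38 and rod cultures at 1.93 ± 0.912 CPM (SD, n = 3 each), a difference of 0.99 ± 0.48 (log2, SE) that did not pass (adjusted p = 0.225). The summed cone markers were lower on the later days too, going from 62.6 to 95.2 CPM in cone cultures at day 5 to 1.44 to 6.59 CPM at day 21, and in rod cultures from 21.7 to 33.5 CPM to 0.587 to 2.16 CPM; their part in the fall of Rxrg was not tested.

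Rxra was higher in cone than in rod cultures. Over the mean of days 5 to 35 the difference was 0.48 ± 0.09 (log2, SE), or 1.39-fold (adjusted p = 2.05e-04), and 0.52 without replicate 2 of the rod cultures at day 12. At day 21 the libraries measured 33.6, 30.6 and 33.3 CPM in cone and 16.5, 24.6 and 22.0 CPM in rod cultures, a difference of 0.63 ± 0.18 (adjusted p = 0.0270). At day 35 they measured 43.0, 31.6 and 40.4 CPM in cone and 28.2, 25.3 and 22.8 CPM in rod cultures, a difference of 0.59 ± 0.18 (adjusted p = 0.0280). The cone libraries lay above the rod libraries on both days. These 2 calls were lost in fits of the compared libraries only (0.0602 and 0.0553) and without 1 library: at day 21 any but rod replicate 2 (0.0542 to 0.138), and at day 35 cone replicates 1 and 3 and rod replicates 2 and 3 (0.0667 to 0.125).

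At days 5 and 12 the Rxra differences of 0.43 ± 0.18 and 0.26 ± 0.18 did not pass (adjusted p = 0.145 and 0.433); the first passed with only the compared libraries (0.0252) and the second with voom (0.0268). Without replicate 2 of the rod cultures the difference at day 12 was 0.45 (adjusted p = 0.167). Mesenchyme markers summed to means of 76.6, 491, 913 and 2720 CPM in cone and 26.6, 157, 338 and 530 CPM in rod cultures at days 5, 12, 21 and 35, with ranges that overlap at day 35 alone, and microglia markers averaged 134 against 2.92 CPM at day 35. In the 3 cone libraries of day 35 the mesenchyme sum was 3326, 735 and 4100 CPM, lowest in replicate 2, as was Rxra. The microglia sum in the same libraries was 53.5, 84.5 and 263 CPM, lowest in replicate 1, where Rxra was highest. The part of these cells in the Rxra difference was not tested. At day 0 replicate 1 was the highest for Rxra in each of the 3 groups, at 33.0, 35.6 and 27.7 CPM, and also the library with the fewest counts. Against cone primed cells Rxra rose at day 35 by 0.51 ± 0.18 (log2, SE; adjusted p = 0.0180), while the groups overlap, since cone primed replicate 1 measured 35.6 CPM and cone day 35 replicate 2 measured 31.6 CPM. That call was lost without cone primed replicate 2 or 3 or cone day 35 replicate 1 or 3 (0.0812 to 0.154) and with the compared libraries only (0.0657).

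Rxrb, which lies in the major histocompatibility complex region and is active in most cells, had group means between 14.0 and 21.1 CPM. It fell against cone primed cells by -0.58 ± 0.14 at day 12, -0.45 ± 0.14 at day 21 and -0.37 ± 0.14 at day 35 (log2, SE; adjusted p = 0.00157, 0.00976 and 0.0275). Against rod primed cells it fell by -0.45 ± 0.14 at day 12 and -0.50 ± 0.14 at day 21 (adjusted p = 0.0134 and 0.00471), the first being -0.53 without replicate 2 of the rod cultures. The call in cone cultures at day 35 was lost without cone primed replicate 1 or 2 or cone day 35 replicate 3 (0.113, 0.0506 and 0.0795), and that in rod cultures at day 12 without rod day 12 replicate 1 (0.0770). With the compared libraries only these were at 0.0605 and 0.0585. No cone to rod comparison of Rxrb passed.

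In length-scaled terms the 3 retinoid X receptor genes were close in untreated cells, with Rxrg at 39.4 ± 9.50%, Rxrb at 31.5 ± 2.51% and Rxra at 29.1 ± 7.02% of the family, with overlapping ranges. At day 35 Rxra made up 62.7 ± 5.21% and Rxrb 36.9 ± 5.03% in cone cultures, and 53.8 ± 4.01% and 46.2 ± 4.01% in rod cultures (SD, n = 3 each). The family sum, not tested, was 16.6 ± 0.353 CPM per kb in untreated cells, and 11.2 ± 0.963 in cone and 8.64 ± 0.296 in rod cultures at day 35.

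Crabp1 and Crabp2 encode small proteins that bind retinoic acid in the cytoplasm; Crabp2 is known to hand it to the receptors. Crabp1 was the member with the highest length-scaled level in untreated cells, at 63.4 ± 26.4 CPM per kb, and Crabp2 was at 1.08 ± 0.757 (SD, n = 3 each). Its replicates spread widely at day 0, at 59.1, 66.6 and 26.8 CPM in untreated and 67.1, 23.7 and 71.2 CPM in cone primed cells, while the rod primed libraries lay at 38.1, 29.2 and 28.6 CPM, within that range.

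Crabp1 fell in both cultures, and by day 12 in cone cultures. It measured 29.7, 29.0 and 26.9 CPM at day 5 and 10.1, 8.46 and 3.94 CPM at day 12 in cone cultures, and 42.1, 19.4 and 29.4 CPM and then 21.1, 16.0 and 35.9 CPM in rod cultures. Against cone primed cells the fall was -2.86 ± 0.47 at day 12, -2.79 ± 0.47 at day 21 and -2.22 ± 0.46 at day 35 (log2, SE; largest adjusted p = 1.52e-04). Against rod primed cells it passed at day 21, at -1.24 ± 0.45 (adjusted p = 0.0224; 0.0718 without rod primed replicate 1 and 0.106 without rod day 21 replicate 2), and at day 35, when it was 4.01-fold lower (adjusted p = 6.33e-04). Neuronal markers were lower by day 12 as well: from cone primed cells to cone cultures the retinal ganglion cell sum went from 243 to 634 CPM down to 30.7 to 63.4 CPM and the amacrine and horizontal cell sum from 618 to 654 CPM down to 141 to 264 CPM. From rod primed cells to rod cultures these went from 93.4 to 279 CPM down to 37.2 to 83.6 CPM and from 419 to 467 CPM down to 159 to 310.3 CPM. Their part in the fall of Crabp1 was not tested.

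At day 12 all 3 cone libraries lay below the rod libraries for Crabp1, and the difference was -1.71 ± 0.46 (log2, SE; adjusted p = 0.0172; -1.95 without replicate 2 of the rod cultures). This call was lost without cone day 12 replicate 3 (0.119), without rod day 12 replicate 3 (0.118) and in a fit of the compared libraries only (0.108). Over the mean of days 5 to 35 the difference of -0.51 ± 0.23 did not pass (adjusted p = 0.0961), though it did without replicate 2 of every group (0.0489).

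Crabp2 was low in all groups, with 2 to 59 counts a library. Its counts were 3, 23 and 35 in the untreated libraries, 2, 11 and 12 after cone priming and 16, 13 and 59 after rod priming, and the cone primed and rod primed libraries do not overlap as CPM. The difference of cone primed from rod primed cells was -1.84 ± 0.60 (log2, SE) and did not pass (adjusted p = 0.0591), though it did without rod primed replicate 2 (0.0372); without rod primed replicate 3 it was -1.07 (adjusted p = 0.472). Against rod primed cells Crabp2 fell at all 4 days, by -2.42 ± 0.61, -3.46 ± 0.66, -1.99 ± 0.59 and -2.18 ± 0.60 (largest adjusted p = 0.00719); without replicate 2 of the rod cultures the value at day 12 was -3.36. Rod primed replicate 3 carries much of this: without it the values were -1.64, -2.69, -1.21 and -1.40, and only that of day 12 passed (adjusted p = 0.102, 0.00340, 0.121 and 0.0702).

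Stra6, whose name stands for stimulated by retinoic acid, was also low, with 1 to 41 counts a library. Its counts were 8, 5 and 12 in the untreated libraries, 7, 18 and 7 after cone priming and 29, 27 and 41 after rod priming. It rose in rod primed cells from 0.724 ± 0.354 to 3.44 ± 0.640 CPM (SD, n = 3 each), with no overlap and a log2 fold change of 2.29 ± 0.52 (SE; adjusted p = 0.00477). Cone primed cells were lower than rod primed cells by -1.71 ± 0.50 (adjusted p = 0.0358). This call was lost without cone primed replicate 1 or 3 or rod primed replicate 1 or 3 (0.0923 to 0.177) and with no filter on low counts (0.0591).

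In rod cultures Stra6 fell back, to 1.38 ± 0.205 CPM at day 5 and 0.611 ± 0.140 CPM at day 21 (SD, n = 3 each). The fall against rod primed cells passed at day 12, at -2.06 ± 0.50 (-2.59 without replicate 2 of the rod cultures), at day 21, at -2.48 ± 0.52, and at day 35, at -2.04 ± 0.50 (log2, SE; largest adjusted p = 0.00165). No day of the cone cultures passed against cone primed cells. Over the mean of days 5 to 35 cone cultures were lower by -0.68 ± 0.28, which did not pass (adjusted p = 0.0704), though it did with voom (0.00524). Ccdc33, which overlaps Stra6 on the opposite strand outside its exons, did not pass in rod primed cells (log2 fold change -0.25 ± 0.31, SE) but fell in both cultures at days 12 to 35, by -3.65 ± 0.39 against rod primed cells at day 12 (adjusted p = 3.36e-08).

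**Figure D4:**
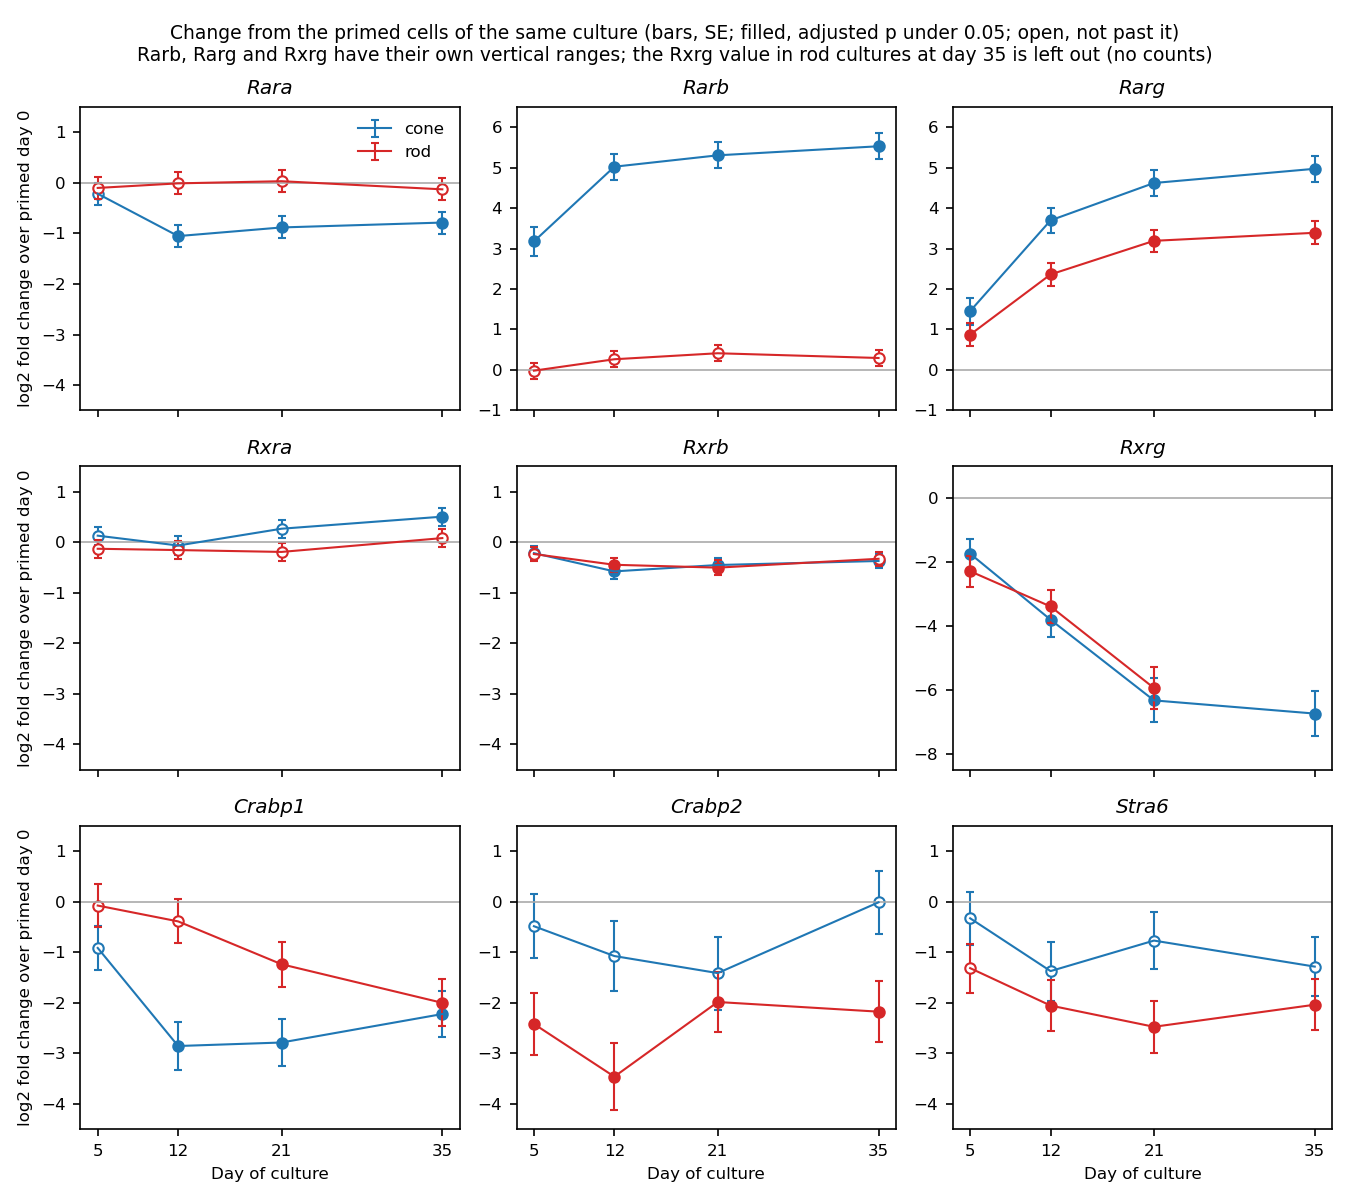
Log2 fold change of each member at days 5 to 35 over the primed cells of the same culture (vertical axis), cone in blue and rod in red, with SE bars; filled points passed an adjusted p of 0.05. Rarg rises and Rxrg falls in both cultures, while Rarb rises to 5.53 in cone cultures and has no filled point in rod cultures.

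Counted over the members, cone and rod cultures differed in 1 of 9 at day 5, which was Rarb, and in 2 at day 12, which were Rarb and Crabp1. Rarb and Rxra were the 2 that differed at day 21, again at day 35, and in the mean over the later days. All genes tested were called in 9.28%, 10.1%, 9.00%, 12.3% and 27.8% of cases in these comparisons. Against cone primed cells 3, 6, 6 and 7 members changed at days 5, 12, 21 and 35, beside 22.3%, 48.4%, 52.6% and 57.7% of all genes. Against rod primed cells 3, 5, 6 and 5 members changed, beside 17.5%, 42.4%, 50.8% and 55.6% of all genes. No difference of these shares was tested. How far cone and rod differed changed over the days in 3 of 9 members, beside 9.22% of all genes: Rarb, Rarg (adjusted p = 0.0435) and Crabp1 (adjusted p = 0.0481). Without replicate 2 of the rod cultures at day 12, the mean of days called 3 members and the change with day 4. Rod day 12 against rod primed cells then called 7. Those added there lie among Rara, Rarb, Rxra and Crabp1, whose values against rod primed cells without that library are not given here.

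Of 11 listed enzymes that make or break down retinoic acid 10 were tested and 4 rose in rod primed cells, beside 6.71% of all genes, with a median log2 fold change of 0.74 over the list and 0 over all genes. Dhrs3, which turns retinal back into retinol, rose by 8.23 ± 0.52, from 0.155 to 50.9 CPM (adjusted p = 1.93e-11). Cyp26b1 and Cyp26a1, which break down retinoic acid, rose by 7.79 ± 0.91 and 3.48 ± 0.39 (log2, SE; adjusted p = 1.53e-06 and 6.11e-07). The fourth was Lrat, which stores retinol as an ester and is named after its values were seen. Over the mean of days 5 to 35 3 enzymes were higher and 4 lower in cone cultures, beside 27.8% of all genes called, with a median of -0.35 beside 0.01 over all genes: Cyp26a1 was lower by -5.20 ± 0.22, Cyp26b1 by -4.92 ± 0.31 and Dhrs3 by -2.61 ± 0.15.

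These genes parted in cone cultures over time, where Dhrs3 reached 93.5 ± 15.4 CPM and Cyp26b1 22.5 ± 14.1 CPM at day 35, while Cyp26a1 was at 24.8 ± 11.2 CPM in cone primed cells and 3.51 ± 1.34 CPM at day 35 (SD, n = 3 each). In rod cultures at day 35 they were at 396 ± 74.0, 330 ± 120 and 188 ± 36.0 CPM.

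**Figure D5:**
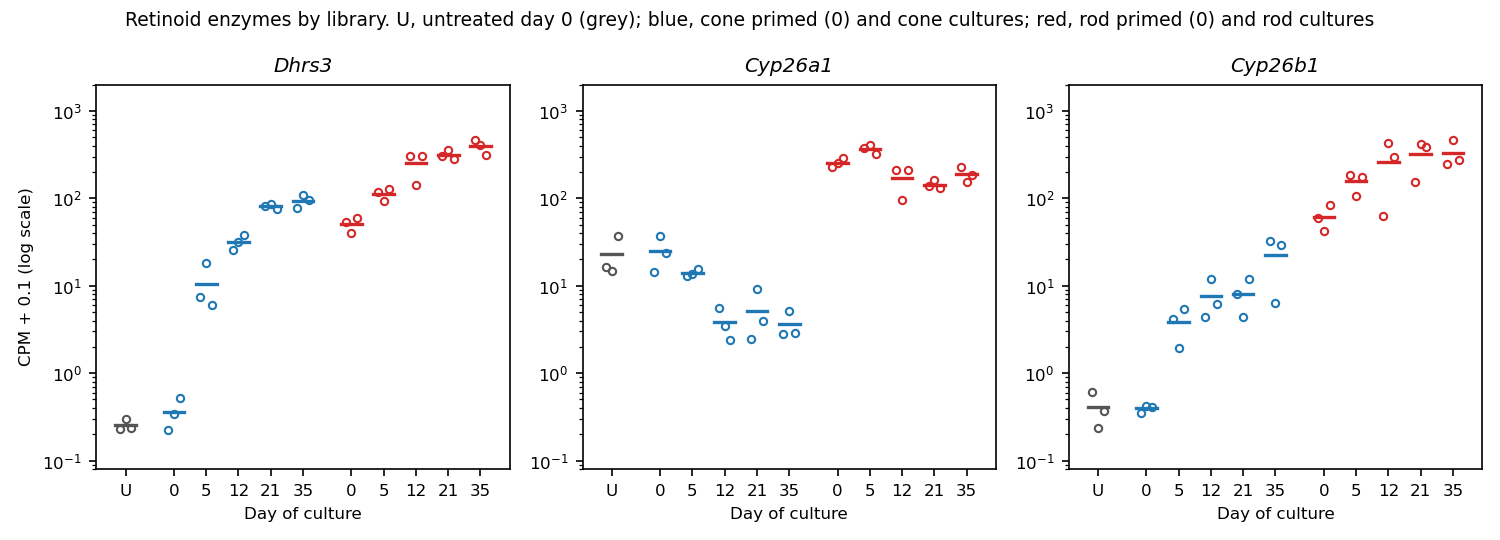
Dhrs3, Cyp26a1 and Cyp26b1 in each of the 33 libraries, as CPM + 0.1 on a log scale; circles are libraries and bars are means of 3. All 3 are higher in rod primed than in untreated libraries, and Cyp26a1 is the one that is lower at day 35 than at day 0 in cone cultures.

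Of 8 further carrier genes 6 were tested and 3 rose in rod primed cells, beside 6.71% of all genes, with a median of 0.93 beside 0 over all genes. Rlbp1, a retinal carrier that is also on the Muller glia list, rose by 1.83 ± 0.36 (adjusted p = 0.00128), and Ttr, named after its values were seen, was also among those that rose. In cone cultures 1 carrier was higher and 3 lower over the mean of days, beside 27.8% of all genes called, with a median of -0.92: Rbp3, a carrier made by photoreceptors, was higher by 2.55 ± 0.56, and Rlbp1 was lower by -0.45 ± 0.17 (adjusted p = 0.0415), which did not hold without replicate 1 or 3 of every group (0.138 and 0.335) or without replicate 2 of the rod cultures at day 12 (0.0696).

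Among 11 nuclear receptors that pair with retinoid X receptors, 0 rose and 2 fell in rod primed cells, beside 6.71% of all genes higher and 3.56% lower, with a median of 0.22. Nr4a2, an orphan receptor, fell by -1.75 ± 0.26 (log2, SE; adjusted p = 6.14e-05), and Thra, a thyroid hormone receptor, by -0.69 ± 0.18 (adjusted p = 0.0145; 0.109 without untreated replicate 2 and 0.0866 without rod primed replicate 3). In cone cultures 1 was higher and 1 lower over the mean of days, beside 27.8% of all genes called, with a median of 0.05. Nr4a1 was lower by -0.77 ± 0.23 (adjusted p = 0.0114, and 0.111 and 0.120 without replicate 2 and replicate 3 of every group). Its mean was lower in cone than in rod cultures at days 12 (10.7 and 24.0 CPM) and 21 (5.37 and 30.1 CPM). It was higher at days 5 (8.52 and 6.15 CPM) and 35 (28.2 and 26.5 CPM). The receptor that was higher over the mean of days was Pparg, named after its values were seen.

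Of 9 coregulators 3 rose and 0 fell in rod primed cells, beside 6.71% of all genes higher and 3.56% lower, with a median of -0.00037. Among those that rose were the coactivator Ncoa3, at 0.49 ± 0.09, and the corepressor Nrip1, at 0.45 ± 0.11 (log2, SE; larger adjusted p = 0.0109). Cone cultures differed over the mean of days in 4 coregulators, 1 higher and 3 lower, beside 27.8% of all genes, with a median of -0.0863 beside 0.01 over all genes. Ncoa3 was lower by -0.45 ± 0.04 and Nrip1 by -0.39 ± 0.06, and the third that was lower was Ncor1, named after its values were seen.

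Of 12 genes known as targets of retinoic acid in other tissues, among them the Hox genes, only 4 passed the filter on low counts, and these counts describe those 4: 1 rose and 1 fell in rod primed cells, beside 6.71% and 3.56% of all genes, and 1 differed over the mean of days, beside 27.8%. Tgm2, a transglutaminase, fell in rod primed cells by -1.30 ± 0.34 (log2, SE; adjusted p = 0.0154), a call lost without untreated replicate 1 or rod primed replicate 2 or 3 (0.0534, 0.0980 and 0.0622). It was lower in cone cultures over the mean of days by -0.40 ± 0.14 (adjusted p = 0.0371, and 0.208 and 0.372 without replicate 1 and replicate 3 of every group). The direction was not the same on all days. Mean Tgm2 was 5.91 and 21.7 CPM in cone and 4.46 and 19.5 CPM in rod cultures at days 5 and 12. At days 21 and 35 it was 22.7 and 34.5 CPM in cone and 47.6 and 73.3 CPM in rod cultures. The gene that rose was Hoxb5, named after its values were seen.

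For each member the 2 genes with the most similar profile over the 33 libraries were taken from the 11911 genes whose log2 CPM averaged 1 or more, by Pearson's r of log2 CPM. The libraries share their groups and depth, and r describes them only. For Rarb they were Pmepa1 and Atoh8 (r = 0.969 for both), for Rarg Cd151 and Ltbp3 (0.984 for both), and for Rxrg Scrt1 (0.977) and Tagln3 (0.972). For Crabp1 they were Nrde2 (0.886) and Dhx30 (0.865), for Rara Sh3bgrl2 (0.869) and Nlgn2 (0.866), and for Rxrb Pcid2 (0.850) and Cln6 (0.848). The least close were those of Rxra, Ptgr2 (0.789) and Stat2 (0.785), of Stra6, Slc2a1 (0.763) and Cdkn1c (0.739), and of Crabp2, Taf6 (0.741) and Nsmce1 (0.708).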

How the data were processed

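The authors deposited unnormalised read counts per gene and, per the file headers, TPM, FPKM and coverage (a per-base signal). The submitters' processing notes name HISAT2, StringTie, HTSeq and GRCm38, with no version or role, and the labels' protocols name Takara low-input RNA kits. Of the reads counted, 26.9 to 34.9% fell in genes; 5 summary lines were left out. Deposited TPM ranked genes unlike the counts (Spearman across genes of at least 200 counts 0.340 to 0.438 per library), and Rxra was at 0 TPM in 25 of 33 libraries but had counts in all; the cause was not tested. TPM served for 1 alternative; FPKM and coverage were not used. Symbols came from the deposited tables, exon lengths from GENCODE M21 and promoter windows from RefSeq on GRCm38.p6.

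Counts were filtered with filterByExpr at a minimum count of 10 by group, scaled by TMM and fitted in 1 quasi-likelihood model of all 33 libraries without a block (edgeR 4.0.16, limma 3.58.1, R 4.3.3). Calls needed an adjusted p below 0.05 (Benjamini-Hochberg, over 18150 genes) in each of 17 comparisons. DESeq2 1.42.0, voom, other filters and scalings, and leaving out each library were alternatives; for the mean of days and the change with day each replicate number was left out. Level sums used Python 3.11.15. The scripts were tested on simulated data. The closest pair of replicates still differed by more than sampling noise (chi-square per degree of freedom 7.80). All members were named; of the other lists, up to 3 called genes per comparison whose log2 CPM averaged 1 or more, taken by size of change. Members and lists were chosen with earlier results of these data known. The floor of 3 counts allows for counting error alone, as no molecular identifiers are recorded. A few genes that this rule names are not reported here.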

Additional observations from a re-analysis of the deposited data

Results flagged for a closer look

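How far cone and rod cultures differed changed over the days in 3 members, by an F test over days 5 to 35 against day 0. For Rarb the adjusted p was 1.04e-08, and it stayed at or under 6.17e-04 when any replicate number was left out. For Rarg it was 0.0435, and it was 0.0545 to 0.721 without replicate 1, 2 or 3 and 0.0254 without replicate 2 of the rod cultures at day 12 alone. For Crabp1 it was 0.0481, and it was 0.183 and 0.725 without replicates 1 and 3 and 0.0329 without that library.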

How the results depend on the processing

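Of 88 single values, all 88 kept direction and call with RLE size factors, as did 87 without a filter on low counts and 78 with the compared libraries only; among 83 that a filter at a mean of 1 CPM kept, all did. On log2(deposited TPM + 1) with limma 59 lost their call and 11 turned: Rarb in rod primed against untreated cells (-0.16), in cone against rod at day 5 (0.0723) and in cone at days 21 and 35 against primed cells (-0.0818 and -0.24), Rarg in cone against rod at day 0 (0.0478) and in cone at day 5 (-0.12), Rxra in cone against rod at day 12 (-0.0592) and in cone at day 35 (-0.10), Stra6 in cone against rod at day 0 (0.30) and in rod at day 35 (0.0934), and Ncoa3 in rod primed cells (-0.26). TPM called 0 members in each comparison that had calls but cone day 5 against primed, with 1; the cause was not tested.

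Members called between cone and rod at day 5 were 1 in the model of all libraries, 4 with the compared libraries only, 3 with voom, 3 with DESeq2 and 2 with the replicate block. At days 12, 21 and 35 the compared libraries only gave 1 each, and voom gave 4 over the mean of days. Leaving out 1 library gave 1 to 4 calls between cone and rod at day 0, 1 to 2 at day 5, 1 to 3 at day 12, 1 to 2 at days 21 and 35, and 1 to 2 in rod at day 5 against primed; leaving out 1 replicate number or the doubted library gave 1 to 4 for the change with day.

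Deviations of same-numbered libraries had a median r of 0.036, over 0.1 in 60 of 165 pairs, and those of different-numbered libraries -0.016, over 0.1 in 90 of 330. Not every same-numbered pair passed 0.1, so the numbers were not taken to pair the samples. That rule is strict and cannot exclude that libraries of the same number were prepared together. Replicate 1 was the shallowest library of every group but the rod cultures at days 12 and 21, so depth went with replicate number. The replicate block moved 1 single value across the threshold, Rarg in cone against rod at day 5 (-0.84, adjusted p = 0.0163). Crabp2, Stra6 and late Rxrg rest on few counts. Leaving out rod day 12 replicate 2 for the mean of days and the change with day was chosen after seeing the data.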
